A study of Mus musculus with 8 samples.

Results

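The 9 genes described here encode transcription factors of the erythroid and megakaryocyte lineages, and their levels were measured in sorted mouse myeloid progenitors. They were chosen by name, and all 9 of them were found among the 33435 named rows of the count table and passed the filter on low counts. They are Gata1 and Gata2, the cofactor gene Zfpm1 (which encodes FOG1), Klf1, Gfi1b, the p45 subunit gene of NF-E2 (Nfe2), the small Maf genes Mafk and Mafg, and Bach1. Hematopoietic stem and progenitor cells were taken from fetal livers of C57BL/6J mice at stage E14.5. A virus carried either Trim27 or, as the control, GFP into these cells before the myeloid progenitors were sorted out. Each group had 4 libraries and is called the GFP or the Trim27 group. The sources used here do not give the viral promoter, the sort markers or the number of animals or cultures. Because of this the p-values reflect the library-to-library spread alone, and that spread may be technical.

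GATA factors bind the GATA motif through zinc fingers. GATA2 acts in stem cells, early progenitors and mast cells, and in erythroid maturation GATA1 takes its place at many sites, the exchange known as the GATA switch. FOG1 binds GATA1 and is needed for much of its action, KLF1 binds CACC boxes and activates globin and red cell membrane genes, and GFI1B is a repressor that works through the histone demethylase LSD1. NF-E2 is a dimer of p45 and a small Maf protein. The small Maf proteins also pair with BACH1, a repressor that is released from DNA by heme.

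Depth ran from 9257889 to 10747794 counts per GFP library and from 10551137 to 16366571 per Trim27 library. Genes detected numbered 11131 to 11850 per GFP library and 12962 to 13283 per Trim27 library. Trim27 replicate 4, the shallowest of its group, had 12962. Levels are given in CPM, the usual depth-normalised read count, relative to library sizes scaled by TMM, a correction for differences in RNA composition. Trim27 itself was at 171 to 191 CPM in the GFP libraries and at 268 to 311 CPM in the Trim27 libraries (log2 fold change 0.70, SE 0.05, edgeR adjusted p = 7.38e-13). Most genes differed between the groups. Among tested genes the median log2 fold change was 1.91 under 2 log2 CPM and -0.60 at 10 or more. The scarce genes include some that passed the filter on low counts through 1 group only. The part of the filter in their shift was not tested. The difference also ran with transcript length: the median log2 fold change was -0.67 for genes with under 1000 exonic bases and 0.84 for those with over 8000. Values after removal of this trend in each library are therefore given where they change a result, with the trend fitted either on all genes or on abundant genes only. The log2 fold change of Trim27 was 0.14 with the all-gene length correction and 0.74 with the abundant-gene one. Of 11040 genes tested, 85.5% had a Benjamini-Hochberg adjusted p under 0.05 in the quasi-likelihood test of edgeR, 47.5% higher in the Trim27 group and 38.0% lower, and the groups did not overlap for 80.7%. With scaling by library size alone, 66.9% of the calls were rises, against 55.59% as reported, and the tested genes had a median log2 fold change of 0.44 in place of 0.14. All 8 markers of myeloid progenitors were detected, among them Mpo, Prtn3, Kit and Cd34. Summed, they were at 1492 to 1604 CPM in the GFP libraries and at 1005 to 1159 CPM in the Trim27 libraries, with 0 of 8 higher and 7 lower by the test. The liver markers Alb, Ttr, Apob and Hnf4a and the macrophage markers C1qa, Marco and Mrc1 had no count in any library. The B cell markers Cd79a, Vpreb1 and Igll1 fell and the macrophage marker Emr1 rose, and the sum of all these other markers was at 37.63 to 78.6 CPM in GFP and 28.88 to 34.85 CPM in Trim27 libraries. The part of these markers in the results was not tested.

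Gata1 and Gata2 rose in the Trim27 group, as did Nfe2, Mafk and Mafg, while Zfpm1, Klf1 and Gfi1b fell and Bach1 did not pass the test. The directions of Gata1, Gata2 and Klf1 were known when these genes were chosen. In all, 8 members were called, and for the same 8 the groups did not overlap. Since 85.5% of all tested genes were called and 80.7% did not overlap, neither share sets the members apart. What follows is therefore the direction and size of each change, read beside genes of like abundance. In bulk RNA, fewer cells of a type and less RNA per cell cannot be told apart.

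**Figure D1:**
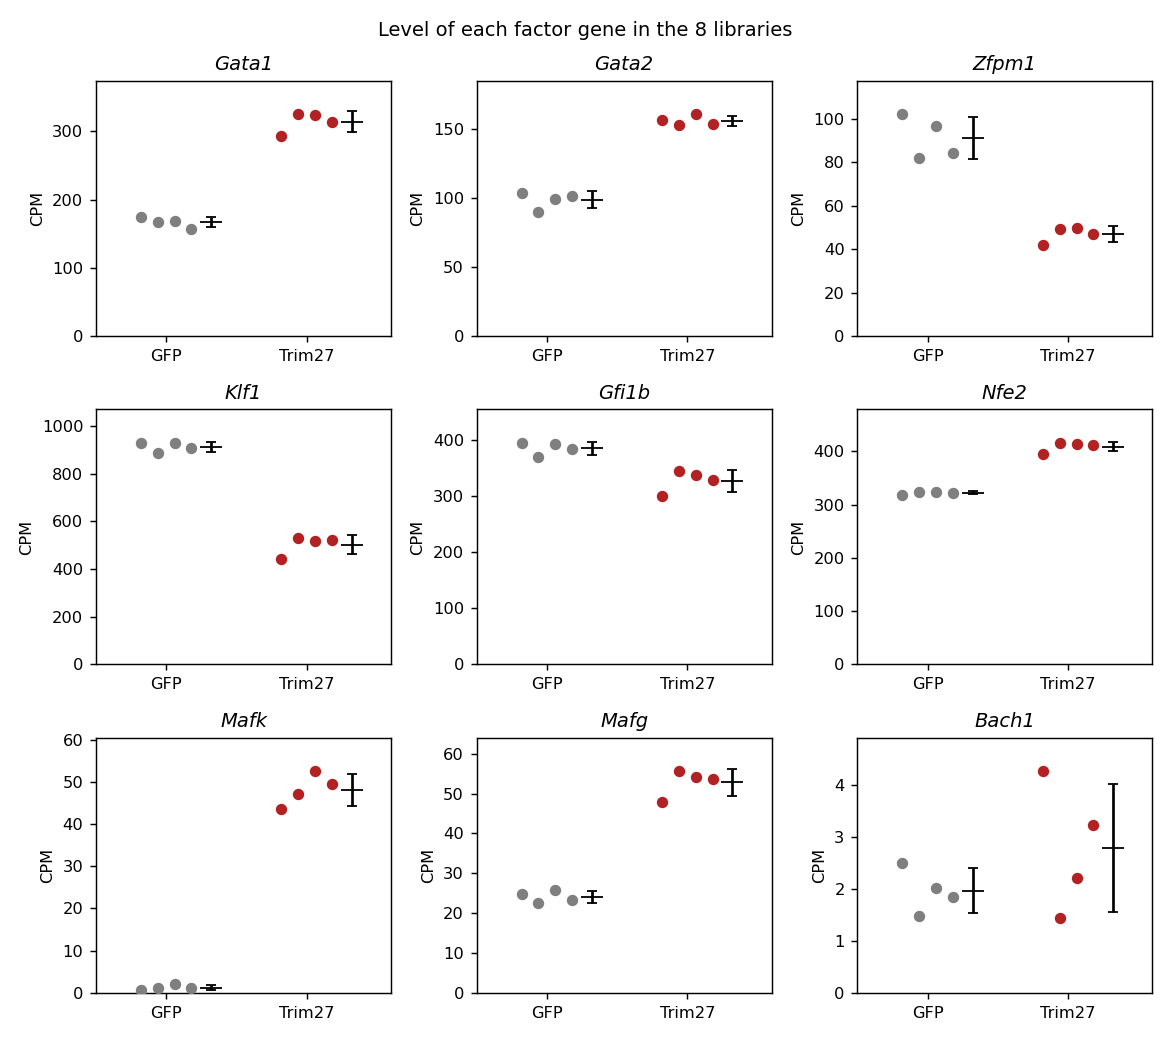
Level of each of the 9 genes in CPM (vertical axes from 0) in the 4 GFP libraries (grey) and the 4 Trim27 libraries (red), one point per library, with the mean and SD beside the points. The groups overlap for Bach1 only.

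Gata1, the main erythroid and megakaryocyte GATA factor, was at 175, 167, 169 and 157 CPM in GFP replicates 1 to 4 and at 293, 325, 324 and 314 CPM in Trim27 replicates 1 to 4. Every Trim27 library lay far above every GFP library. The mean went from 166.9 ± 7.56 to 314.2 ± 14.9 CPM (SD, n = 4 each), on the log2 scale 0.91 (SE 0.05, edgeR adjusted p = 6.56e-16). Among the 1978 tested genes of similar abundance (6 to 8 log2 CPM) 33.9% rose, and 8.75% had a log2 fold change at least as high as that of Gata1.

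Gata2, the GATA factor of early progenitors and mast cells, was at 104, 90.4, 99.7 and 102 CPM in the GFP libraries and at 157, 153, 161 and 154 CPM in the Trim27 libraries. The groups stood well apart, and the Trim27 libraries were close to each other. The mean rose from 99.04 ± 6.01 to 156.2 ± 3.46 CPM (SD, n = 4 each; log2 fold change 0.66, SE 0.06, edgeR adjusted p = 7.44e-12). In its abundance range 33.9% of genes rose, and 13.4% had a value at least as high. The log2 fold change of Gata2 was 0.16 (edgeR adjusted p = 0.0134) with the all-gene length correction and 0.72 with the abundant-gene one. For Gata1 these values were 0.76 and 1.07.

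Zfpm1 fell as the GATA genes rose. It was at 102, 81.9, 96.7 and 84.2 CPM in the GFP libraries and at 41.7, 49, 49.7 and 46.8 CPM in the Trim27 libraries. No Trim27 library came near the GFP range. The mean fell from 91.17 ± 9.62 to 46.79 ± 3.62 CPM (SD, n = 4 each), on the log2 scale -0.96 (SE 0.08, edgeR adjusted p = 1.45e-12). In its abundance range 52.6% of genes fell, and 12.7% had a value at least as low.

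Klf1, the CACC box factor of red cells, was the most abundant of the 9 genes. It was at 926, 884, 929 and 906 CPM in the GFP libraries and at 442, 530, 518 and 520 CPM in the Trim27 libraries. Trim27 replicate 1 was the lowest of all 8, and without it the log2 fold change was -0.83 against -0.86 (SE 0.05, edgeR adjusted p = 1.67e-15) with it. It was -0.56 under scaling by library size alone. The mean fell from 911.3 ± 21.0 to 502.4 ± 40.5 CPM (SD, n = 4 each). A fall was common at this abundance, since 64.0% of the 533 genes from 8 to 10 log2 CPM fell and 18.4% had a value at least as low as that of Klf1.

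Gfi1b, the repressor gene, was at 395, 369, 392 and 383 CPM in the GFP libraries and at 300, 344, 338 and 328 CPM in the Trim27 libraries. The groups did not overlap but lay close together. The mean went from 384.9 ± 11.7 to 327.5 ± 19.5 CPM (SD, n = 4 each), a fall by the test (log2 fold change -0.23, SE 0.05, edgeR adjusted p = 9.51e-05) that turned to 0.07 (adjusted p = 0.151) under scaling by library size, and that was -0.06 (adjusted p = 0.175) with the abundant-gene length correction. With the all-gene length correction it was -0.36 (adjusted p = 1.11e-07). Of the genes in its abundance range 57% had a value at least as low, so the change of Gfi1b was ordinary for its level.

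Promoters are shown for 2 genes that rose, Gata1 and Mafk, and for 2 that fell, Klf1 and Gfi1b. Klf1 and Gfi1b were the only members found with GATAA in their windows. RefSeq windows (GRCm38.p6, a later build than the NCBIM37 used for the counts) of 300 bases, 250 before and 50 after the start, were found for 8 of the 9 members, with 2 windows for Gata2, but not for Nfe2. The 250 bases before the start are printed 5′ to 3′ on the strand of the gene, from chrX:7967911-7968160 (minus strand) for Gata1, chr8:84901732-84901981 (plus strand) for Klf1, chr2:28621983-28622232 (minus strand) for Gfi1b and chr5:139791286-139791535 (plus strand) for Mafk. Capitals mark matches on either strand to GATAA (a form of the GATA motif, read TTATC on the opposite strand), CCNCNCCC (a CACC box and GC box core) or TGANTCA (an NF-E2 and AP-1 core). Other forms of the GATA motif were not searched, and the GATAG in the Gata1 stretch is therefore unmarked.
Gata1: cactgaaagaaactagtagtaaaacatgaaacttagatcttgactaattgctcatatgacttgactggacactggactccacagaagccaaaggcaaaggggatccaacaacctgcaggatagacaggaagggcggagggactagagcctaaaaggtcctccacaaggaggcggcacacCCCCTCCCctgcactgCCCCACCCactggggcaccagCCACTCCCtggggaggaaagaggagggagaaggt
Klf1: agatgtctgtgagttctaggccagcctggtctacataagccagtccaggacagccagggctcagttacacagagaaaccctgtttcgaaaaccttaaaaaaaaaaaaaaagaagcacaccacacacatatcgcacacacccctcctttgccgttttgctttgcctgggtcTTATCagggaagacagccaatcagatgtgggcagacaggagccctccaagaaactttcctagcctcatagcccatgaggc
Gfi1b: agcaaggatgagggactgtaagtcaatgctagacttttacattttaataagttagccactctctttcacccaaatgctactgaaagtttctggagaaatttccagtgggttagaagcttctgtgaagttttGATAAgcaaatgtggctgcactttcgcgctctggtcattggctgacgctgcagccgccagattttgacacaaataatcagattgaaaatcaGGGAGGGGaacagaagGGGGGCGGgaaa
Mafk: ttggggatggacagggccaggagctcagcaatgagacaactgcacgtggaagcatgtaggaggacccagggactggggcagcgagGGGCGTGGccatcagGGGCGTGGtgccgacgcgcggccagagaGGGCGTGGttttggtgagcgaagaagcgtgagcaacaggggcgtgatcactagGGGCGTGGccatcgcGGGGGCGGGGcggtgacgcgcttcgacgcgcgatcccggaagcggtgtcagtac

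GATAA stood 80 bases before the start of Klf1, on the opposite strand, and 119 bases before that of Gfi1b. It was in 2 of the 9 windows, against 25.4% of 32851 windows of the same length. Zfpm1, which also fell, had no GATAA in its window. CCNCNCCC was in 8 of the 9 windows, all but that of Klf1, against 49.5% of all windows. Its matches can overlap each other, and it is frequent where bases are mostly G and C. The windows of Mafk, Mafg, Bach1, Zfpm1 and Gata2 held 68.3% to 73.7% G and C, against a median of 52.7% over all windows. TGANTCA was in 0 of the 9 windows and in 7.81% of all. These letters are a description of the windows, and which start site the cells used was not measured.

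Nfe2, the p45 subunit gene, was at 318, 323, 324 and 322 CPM in the GFP libraries and at 395, 416, 413 and 411 CPM in the Trim27 libraries. The GFP libraries were within a few CPM of each other and all lay below the Trim27 libraries. The mean rose from 322.0 ± 2.84 to 408.8 ± 9.20 CPM (SD, n = 4 each; log2 fold change 0.34, SE 0.05, edgeR adjusted p = 4.56e-08). In its abundance range 23.5% of genes rose, and 12.4% had a value at least as high. With the all-gene length correction Nfe2 was at 0.07 (adjusted p = 0.156) and lost its call. It was at 0.46 with the abundant-gene one and at 0.65 under scaling by library size alone, both with the call kept.

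Mafk, one of the small Maf partners of p45 and BACH1, moved most among the 9 genes. It had 5, 11, 17 and 11 counts in GFP replicates 1 to 4, or 0.571, 1.17, 2.03 and 1.13 CPM. In Trim27 replicates 1 to 4 it had 724, 783, 951 and 582 counts, or 43.6, 47.1, 52.5 and 49.4 CPM. It was scarce in every GFP library and plentiful in every Trim27 library. The mean rose from 1.23 ± 0.603 to 48.2 ± 3.77 CPM (SD, n = 4 each), on the log2 scale 5.30 (SE 0.17, edgeR adjusted p = 2.61e-21). Among 3378 genes from 4 to 6 log2 CPM, 1.36% had a value at least as high. That range is set by the mean over both groups, and Mafk reached it only through the Trim27 libraries. The filter on low counts was also passed only through those libraries. Among genes under 2 log2 CPM 58.5% rose, with a median log2 fold change of 1.91. The share among genes as scarce as Mafk in the GFP libraries was not computed. The fold of 39.3 rests on 44 counts over the GFP libraries, and the log2 value ran from 5.07 to 5.62 with each library left out and from 4.81 to 5.60 over the other settings. In the GENCODE M21 annotation 169 of the 3901 exonic bases of Mafk overlap Tmem184a on the opposite strand, which had no count in any library.

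Mafg, its close relative, was at 24.7, 22.6, 25.8 and 23.2 CPM in the GFP libraries and at 48, 55.6, 54.1 and 53.6 CPM in the Trim27 libraries. The groups stood clear of each other. The mean rose from 24.1 ± 1.46 to 52.8 ± 3.34 CPM (SD, n = 4 each; log2 fold change 1.13, SE 0.09, edgeR adjusted p = 4.28e-13). For Mafg the value was 0.46 with the all-gene length correction and 1.153 with the abundant-gene one. In its range 21.4% of genes rose at least as much. Mafg shares 124 of its 5613 annotated exonic bases with Sirt7, whose log2 fold change was -0.21, and 0.09 under scaling by library size alone.

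Maff, the remaining small Maf gene, went the other way, from 9.84 to 6.83 CPM (log2 fold change -0.52, edgeR adjusted p = 0.00513), a call that Maff lost under scaling by library size alone (-0.21, adjusted p = 0.225). Set per kilobase of annotated exons, Mafk made up 1.70%, 3.94%, 5.93% and 3.32% of the 3 small Maf genes in the GFP libraries, replicates 1 to 4 in order, and 50.3%, 49.0%, 52.4% and 52.4% in the Trim27 libraries. The share of Maff went from 43.5% to 50.9% over the GFP libraries to 9.38% to 12.6% over the Trim27 libraries. The sum of the 3 genes ran from 8.21 to 9.46 CPM per kilobase among GFP libraries and from 23.9 to 27.7 among Trim27 libraries. The shares were computed after the values of Mafk were seen and are a description.

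Bach1, the heme-sensitive repressor gene, was scarce in both groups. It was at 2.51, 1.49, 2.03 and 1.85 CPM in the GFP libraries and at 4.27, 1.44, 2.21 and 3.23 CPM in the Trim27 libraries. The groups overlapped, and Trim27 replicates 1 and 2 held the highest and the lowest value. The log2 fold change was 0.49 (SE 0.33, edgeR adjusted p = 0.16), with 71 counts over the GFP libraries and 173 over the Trim27 libraries. It was 0.16 without Trim27 replicate 1, -0.25 (adjusted p = 0.479) with the all-gene length correction, 0.49 with the abundant-gene one and 0.80 (adjusted p = 0.0279) when libraries were scaled by size alone. Both the direction and the call of Bach1 thus depended on the setting. As reported, 60.5% of the 2115 genes under 2 log2 CPM had a value at least as high as that of Bach1 (median 1.91). That background includes genes that passed the filter through 1 group only.

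**Figure D2:**
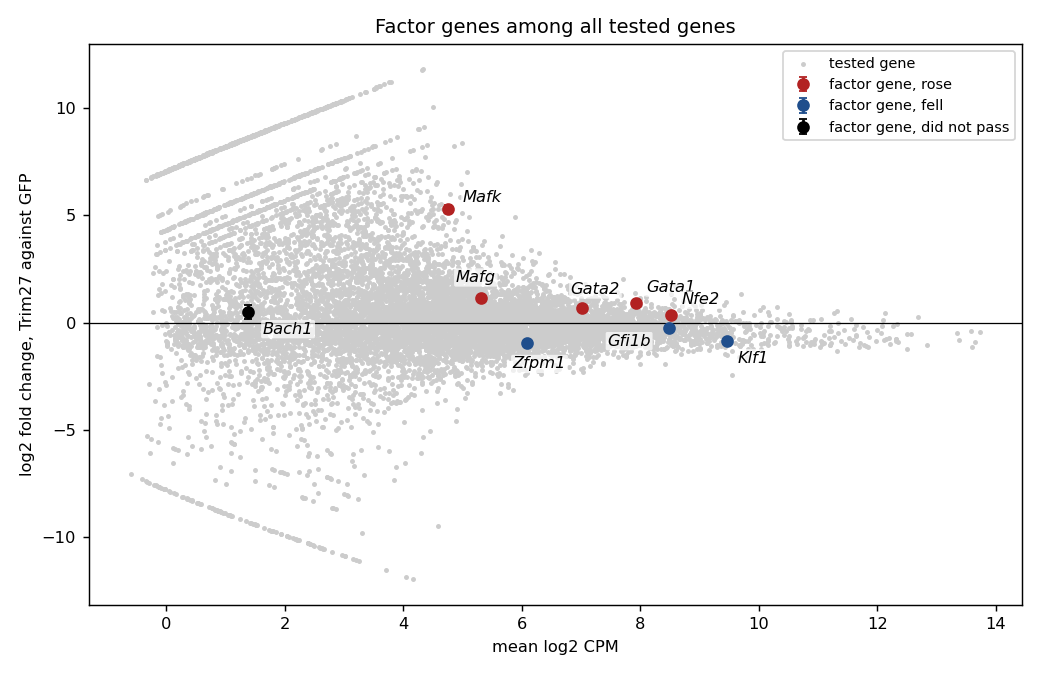
Log2 fold change between the Trim27 and GFP groups (vertical axis) against mean log2 CPM (horizontal axis) for all 11040 tested genes (grey) and the 9 factor genes (colour by call, bars are SE). Mafk lies at 5.30 near the upper edge of genes of its abundance, Bach1 lies among scarce genes whose values scatter widely, and the call of Gfi1b, near 0, turns to 0.07 with scaling by library size alone; the straight bands at the left are genes with few or no counts in 1 group.

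Set per kilobase of annotated exons, the order of levels in the GFP group was Klf1 (596 CPM per kilobase), Gfi1b (211), Nfe2 (142), Gata1 (87.7), Zfpm1 and Gata2 (26.9 each), Mafg (4.46), Mafk (0.339) and Bach1 (0.336). Zfpm1 and Gata2 overlapped, as did Mafk and Bach1, and the other neighbours did not. In the Trim27 group the order was Klf1 (328), Gfi1b and Nfe2 (180 each), Gata1 (165), Gata2 (42.4), Zfpm1 (13.8), Mafk (13.3), Mafg (9.79) and Bach1 (0.475). Here Gfi1b and Nfe2 overlapped, and so did Zfpm1 and Mafk. Gata2 and Zfpm1, level in the GFP libraries, were thus apart in the Trim27 libraries, and Mafk had passed Mafg. The lengths count every annotated exon, so a level per kilobase is approximate where cells use a part of them.

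The more abundant of the 9 genes tended to vary less within the GFP group, but the Trim27 group did not follow this order. The coefficient of variation was 0.881% for Nfe2, 2.30% for Klf1 and 4.53% for Gata1 over the GFP libraries, and 2.25%, 8.06% and 4.73% over the Trim27 libraries. It was largest for the scarce genes, at 49.2% for Mafk in the GFP group and 44.1% for Bach1 in the Trim27 group. In the Trim27 group Mafk (7.84%) and Zfpm1 (7.74%) varied slightly less than the far more abundant Klf1. Trim27 replicate 1 was the lowest Trim27 library for 7 of the 9 genes, and GFP replicate 2 the lowest GFP library for 6 of the 9.

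Ratios of raw counts within a library do not depend on how libraries are scaled, though they do depend on any effect of transcript length, and 6 ratios between members were formed. Those of Gata1 to Zfpm1, Klf1 and Gfi1b had to separate the groups, since these genes fell and Gata1 rose with no overlap, and are given as sizes with no test. The other 3 were compared by exact 2-sided permutation tests, where 4 libraries against 4 allow no p below 0.0286. Of these, the ratio of Mafk to Mafg also had to separate the groups, given the ranges of the 2 genes. Gata1 rose relative to Gata2, Zfpm1, Klf1 and Gfi1b. For every Klf1 count there were 0.189, 0.189, 0.182 and 0.173 Gata1 counts in the GFP libraries, by replicate, and 0.663, 0.614, 0.626 and 0.605 in the Trim27 libraries. This is a 3.42-fold difference (1.78 ± 0.0414 on the log2 scale, difference ± SE, n = 4 each). The ratio of Gata1 to Zfpm1 ran from 1.72 to 2.03 among GFP libraries and from 6.52 to 7.03 among Trim27 libraries, 3.66-fold higher. Gata1 and its cofactor gene thus lay further apart in every Trim27 library than in any GFP library.

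The ratio of Gata1 to Gfi1b ran from 0.41 to 0.451 among GFP libraries and from 0.945 to 0.977 among Trim27 libraries, 2.21-fold higher. The ratio of the 2 GATA genes moved least of the 5 whose groups did not overlap. Their ratio values by replicate were 1.68, 1.84, 1.70 and 1.54 in the GFP group against 1.87, 2.12, 2.02 and 2.04 in the Trim27 group, 1.19-fold higher, with GFP replicate 2 and Trim27 replicate 1 nearly touching (exact p = 0.0286, adjusted over the 3 ratios 0.0429, and over all 6 ratios 0.0343). The difference was 0.25 on the log2 scale, and 0.60 between the fold changes of the 2 genes with the all-gene length correction. Over all 6 ratios, the adjusted p was 0.0686 without GFP replicate 4 and without each of the Trim27 libraries in turn, with differences of 0.21 to 0.30 on the log2 scale over all libraries left out. The ratio of Mafk to Mafg ran from 0.0231 to 0.0787 among GFP libraries and from 0.848 to 0.971 among Trim27 libraries, 19.7-fold higher. The ranges of the 2 genes already fixed this separation, so its exact permutation p of 0.0286 (adjusted over the 3 ratios 0.0429) adds no support. For the Gata1 to Gata2 ratio both adjusted values count ratios fixed in this way and are lower for it. For Nfe2 to Bach1 the ranges overlapped, 127 to 217 against 92.6 to 288, with a difference of -0.07 ± 0.389 on the log2 scale (difference ± SE, n = 4 each, exact p = 0.886), and it was 0.32 between the fold changes with the all-gene length correction.

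**Figure D3:**
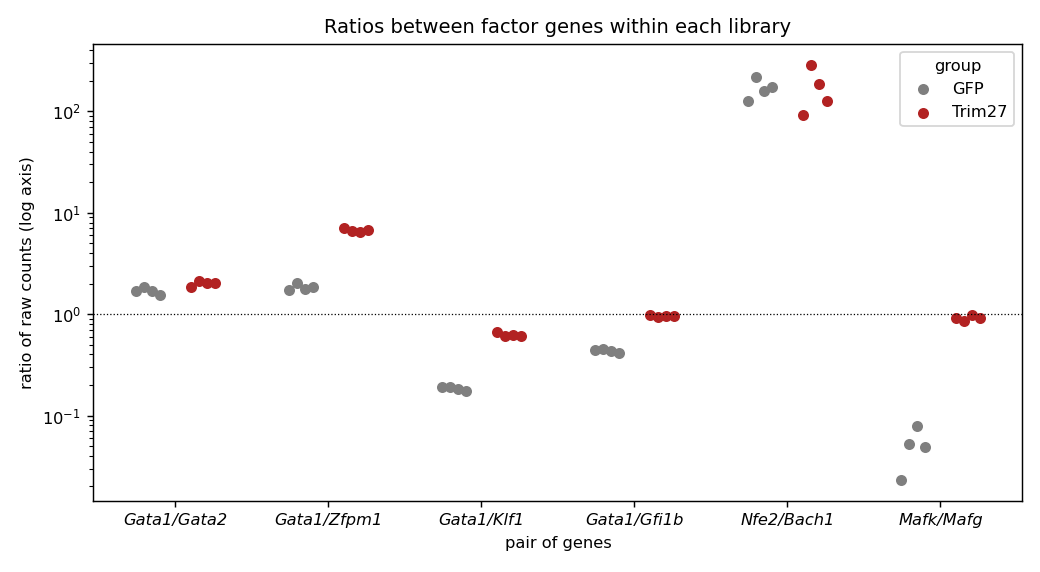
Ratio of raw counts between 6 pairs of factor genes (log vertical axis) in each GFP library (grey) and each Trim27 library (red); the dotted line marks equal counts. The Gata1 to Klf1 ratio lies at 0.173 to 0.189 in the GFP libraries and at 0.605 to 0.663 in the Trim27 libraries, and the Nfe2 to Bach1 ratio overlaps between the groups.

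The genes whose profile over the 8 libraries lay closest to that of Gata1, out of the 2448 genes averaging 6 log2 CPM or more, were Tmed9 (root mean square distance 0.0387 on the log2 scale), Eif4h (0.0391) and B4galt1 (0.0437). Their log2 fold changes were 0.97, 0.95 and 0.88. The closest to Klf1 were Ndufa2 (0.025), Map1lc3b (0.0268) and Bckdk (0.0311), with log2 fold changes of -0.88, -0.87 and -0.92. That of Ndufa2 was 0.01 with the abundant-gene length correction. With 2 groups this closeness reflects mainly a like difference between them.

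Around the members, 6 lists of related genes were read beside the background of 47.5% rises and 38.0% falls among all tested genes. Some genes passed the filter on low counts through 1 group only. Of those named below, Klf3, Klf10, Trim10, Ms4a2, Slc7a11 and Slc40a1 passed only through the Trim27 libraries. Epb4.2 and Tubb1 passed only through the GFP libraries. The filter thus largely set the direction of these genes, and their calls add no support. Of 12 genes of the SCL complex and corepressors that work with GATA1 and GFI1B, all tested, 6 fell, 3 rose and 3 did not pass (median -0.32 on the log2 scale, against 0.14 for all tested genes). Among genes of their abundance 38% (4 to 6 log2 CPM) and 52.6% (6 to 8 log2 CPM) fell, so 6 of 12 is near the background. With the all-gene length correction 10 fell and 2 rose, and with library size alone 5 rose and 6 fell. Lyl1, a relative of the SCL gene Tal1, fell from 153.7 ± 7.33 to 55.6 ± 3.80 CPM (SD, n = 4 each; log2 fold change -1.47, SE 0.06). Ldb1, which bridges the complex between distant sites, fell from 113.3 ± 7.75 to 41.7 ± 2.18 CPM (-1.44, SE 0.07), and 177 of its annotated exonic bases overlap Pprc1. Rcor1, which joins LSD1 to GFI1B, rose from 7.04 ± 0.816 to 34.3 ± 2.09 CPM (2.28, SE 0.12), and the deacetylase gene Hdac1 rose from 31.4 ± 3.28 to 81.4 ± 3.37 CPM (1.37, SE 0.08). The LSD1 gene Kdm1a averaged 32.5 CPM in GFP and 28.6 CPM in Trim27 libraries (log2 fold change -0.18, edgeR adjusted p = 0.0572), which was -0.57 (adjusted p = 6.59e-07) with the all-gene length correction and 0.12 when scaled by library size.

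Relatives of the members were mostly scarce. Of 19 listed, 7 had no count in any library, among them Gata4, Gata5, Gata6 and Zfpm2, and 10 could be tested, of which 5 rose, 4 fell and 1 did not pass (median 0.02). With library size alone 5 rose and 1 fell, and with the all-gene length correction 3 rose and 6 fell. Klf3, a repressor of the family that can share sites with KLF1, rose by 5.64 on the log2 scale from 4 counts over the GFP libraries to 6.00 ± 0.527 CPM (SD, n = 4) in the Trim27 libraries. Klf10, a Krüppel-like factor induced by transforming growth factor beta, rose from 12 counts over the GFP libraries to 10.1 ± 1.31 CPM (4.88, SE 0.38), and Klf6 rose from 4.07 ± 1.0 to 18.2 ± 1.37 CPM (2.17, SE 0.17). Gfi1, a relative of Gfi1b that acts in granulocyte and lymphoid cells, fell from 12.5 ± 1.37 to 5.58 ± 0.301 CPM (-1.16, SE 0.16). Rises were common at the abundance of Klf3 (58.5% of genes under 2 log2 CPM) and of Klf6 and Klf10 (55% from 2 to 4 log2 CPM). These shares, too, include genes that passed the filter through 1 group only, as Klf3 and Klf10 did. At the abundance of Klf1 (8 to 10 log2 CPM) 64% of genes fell.

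Erythroid genes known to depend on GATA1 and KLF1 did not move one way. Of 21 listed, Hbb-b1 and Ahsp were not analysed here, and of 18 tested 9 rose, 8 fell and 1 did not pass (median 0.06, also with Trim10, which had no GFP count, at its bound). With library size alone 10 rose and 5 fell, and with the all-gene length correction 7 rose and 10 fell. The count of rises was 8 with each library left out in turn and with the replicate block. Their summed level was 1836 to 1875 CPM in the GFP libraries and 1699 to 1810 CPM in the Trim27 libraries. Bcl2l1, which encodes the survival protein BCL-XL, rose from 3.67 ± 1.52 to 41.6 ± 0.716 CPM (SD, n = 4 each; 3.50, SE 0.15). Epb4.2, the gene of protein 4.2 of the red cell membrane, fell from 14.47 ± 1.44 to 0.614 ± 0.259 CPM (-4.49, SE 0.24).

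Genes of the GATA2 programme in progenitors and mast cells split evenly, with 4 of 8 tested higher and 4 lower (median -0.08). The mast cell genes Ms4a2, a chain of the IgE receptor, and Cpa3, a protease, were among the rises. Ms4a2 had 4 counts over the GFP libraries and was at 6.93 ± 1.06 CPM in the Trim27 group (5.85, SE 0.44), and Cpa3 rose from 20.2 ± 3.05 to 50.2 ± 4.21 CPM (SD, n = 4 each; 1.32, SE 0.10). Myc rose from 139.0 ± 6.37 to 210.4 ± 9.60 CPM (0.60, SE 0.05), and Cd34 fell from 62.0 ± 4.43 to 29.98 ± 1.93 CPM (-1.05, SE 0.08). Fcer1a, the gene of another chain of the IgE receptor, was too scarce to test, with no count in the GFP libraries and 42 over the Trim27 libraries, at least 8.04-fold higher against a floor of 3 counts over the group. The mast cell enzyme gene Hdc and the receptor gene Kit fell (-0.89 and -0.60). The part of these genes in the rise of Gata2 was not tested.

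Of 12 megakaryocyte genes that GATA1, FOG1 and NF-E2 control, 5 rose, 5 fell and 2 did not pass (median 0.03). Their summed level was 1174 to 1251 CPM in the GFP libraries and 1042 to 1089 CPM in the Trim27 libraries, and its part in the changes of Gata1, Zfpm1 and Nfe2 was not tested. Known NF-E2 targets moved both ways. Those that rose were Rab27b, a GTPase of platelet granules (from 3.20 ± 0.594 to 31.3 ± 1.86 CPM, 3.29, SE 0.15) and Tbxas1, thromboxane synthase (from 22.9 ± 2.11 to 52.2 ± 4.23 CPM, 1.19, SE 0.09). Tubb1, the beta 1 tubulin gene and another such target, had 152 counts over the GFP libraries and none in the Trim27 libraries, at least 88.3-fold lower against a floor of 3 counts over the group. Platelet genes also moved both ways. Gp9 fell from 142.4 ± 3.78 to 51.7 ± 4.09 CPM (-1.46, SE 0.06). Pf4 fell from a range of 521.3 to 573.8 to one of 240.5 to 273.7 CPM (-1.09, SE 0.05). Gp1bb (-0.70) and Vwf (-0.30) fell as well, while Itga2b (0.61), Itgb3 (0.72) and Ppbp (0.94) rose. Values with ± are mean and SD, n = 4 each.

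Of 14 heme and oxidant response genes at sites that BACH1 and the small Maf proteins share, 13 were tested, of which 5 rose, 7 fell and 1 did not pass (median -0.10). The count of falls was 4 without GFP replicate 3, with DESeq2 size factors or by the DESeq2 Wald test. With library size alone 8 rose and 3 fell. Hmox1, the best known BACH1 target, had no count in any library. Slc7a11, the cystine transporter gene, rose from 0.697 ± 0.199 to 17.2 ± 1.77 CPM (SD, n = 4 each; 4.62, SE 0.23), and Gclc, of glutathione synthesis, rose from 3.60 ± 1.33 to 32.5 ± 2.97 CPM (3.18, SE 0.16). Slc40a1, the iron exporter gene, had 2 counts over the GFP libraries and 1121 over the Trim27 libraries, a ratio of 322 (95% counting interval 88.9 to 2660). Both GFP counts were in replicate 3, and the interval takes them as independent, which 2 reads of a pair would not be. Blvrb, a biliverdin reductase gene, fell from 1473 ± 55.9 to 632.5 ± 62.3 CPM (-1.22, SE 0.06).

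**Figure D4:**
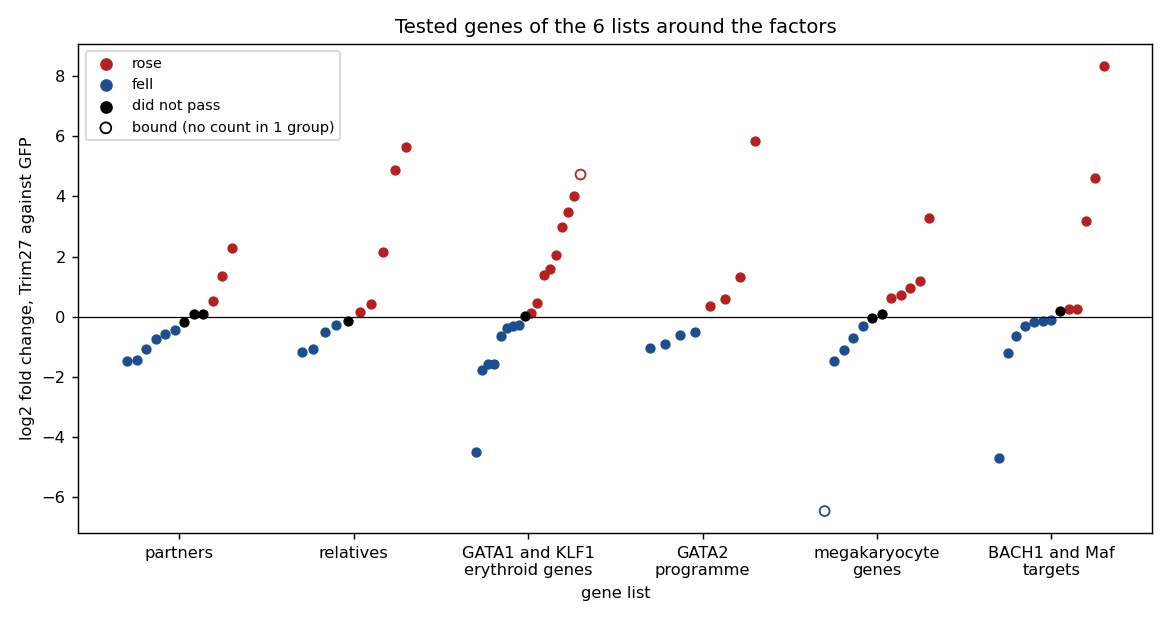
Log2 fold change between the Trim27 and GFP groups (vertical axis) of each tested gene in 6 lists around the factors, ordered within a list and coloured by call; open circles are bounds for genes with no count in 1 group. Each list holds rises and falls, and with library size alone 8 rise and 3 fall among the BACH1 and Maf targets where 5 and 7 do here.

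**Figure D5:**
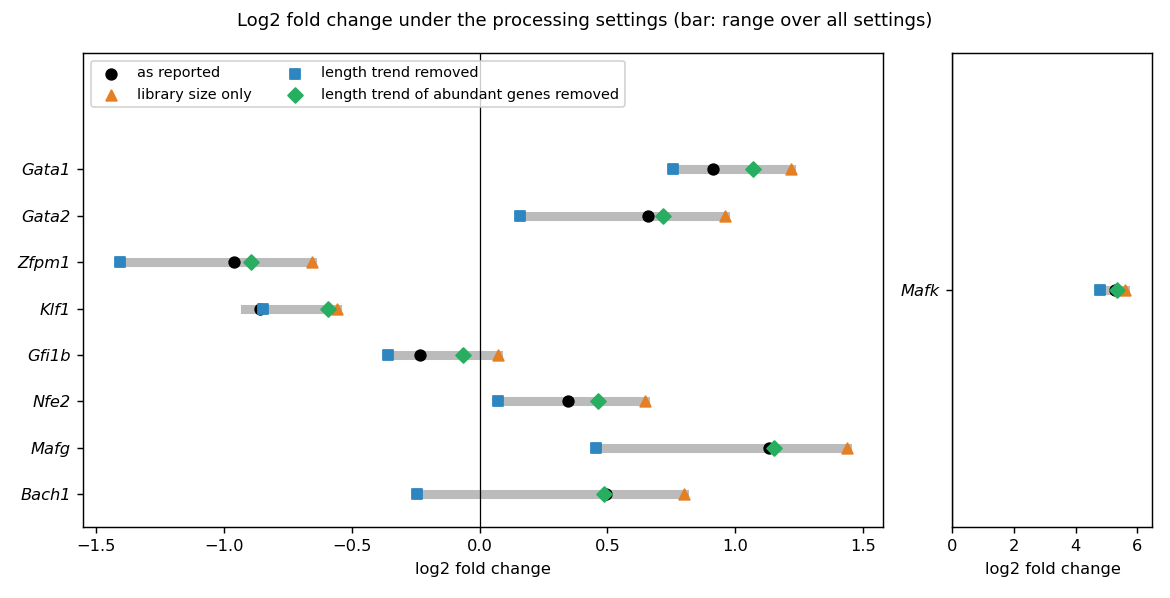
Log2 fold change of each factor gene (horizontal axis) as reported and under 3 other settings, with the grey bar giving the range over all settings and libraries left out; Mafk has its own axis. Gata1, Gata2, Nfe2, Mafk and Mafg stay above 0 and Zfpm1 and Klf1 below it, while Gfi1b reaches 0.07 with library size alone and Bach1 -0.25 with the all-gene length trend removed.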

How the data were processed

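Polyadenylated RNA of 8 libraries was sequenced, and the authors deposited raw counts by gene symbol. HISAT2, featureCounts, bcl2fastq and NCBIM37 appear in the submitters' processing notes; the sources used here give no versions, annotation, strand setting or treatment of pairs. Even numbers made up 64.7% to 72% of the values between 1 and 10, so halved counts were an alternative. One row without a name held 0 counts and was left out.

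The test used edgeR 4.0.16 (R 4.3.3): filterByExpr (minimum count 10, minimum total 15), TMM, and the robust quasi-likelihood test without covariates, 2-sided, adjusted over all 11040 tested genes. SE is the log2 fold change over the root of F. The fit was tested on simulated data. Alternatives used DESeq2 1.42.0 and limma 3.58.1. Transcript length is the union of GENCODE M21 basic exons, known for 99.57% of tested genes; the length corrections removed a lowess trend per library. Intervals and floors cover counting error only. The members and lists were chosen with earlier results of these data known. Named genes were the members, in each list up to 4 called genes of lowest p, 3 nearest profiles each for Gata1 and Klf1, and Trim27. Further genes of the lists (Kdm1a, Maff, Hdc, Kit, Fcer1a, Hmox1 and Tubb1) and the overlapping genes were named after their values were seen. So were Gp1bb, Vwf, Itga2b, Itgb3 and Ppbp, whose values under the other settings are not given. Epb42 was looked up as Epb4.2. Of the erythroid list, 2 genes that this rule names are not reported here.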

Additional observations from a re-analysis of the deposited data

Results flagged for a closer look

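In 104 groups of 4 libraries, 9 held a library that lay far from the other 3 by Dixon's criterion, which chance alone meets in about 1 group in 20. Klf1 was at 442 CPM in Trim27 replicate 1, against 518 to 530 in the other Trim27 libraries. In the same library Eif4h (844 CPM against 932 to 949) and Bckdk (191 CPM against 223 to 227) were low and Rcor1 was high (37.4 CPM against 32.9 to 33.5). In Trim27 replicate 2, Klf6 (16.2 CPM against 18.7 to 19.1) and Klf10 (8.13 CPM against 10.5 to 11) were low. Klf3 was listed only in GFP replicate 4 of its group (0.411 CPM) and Slc40a1 only in GFP replicate 3 (0.239 CPM). Kdm1a was at 31.1 CPM in GFP replicate 4, against 32.9 to 33 in the other GFP libraries.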

How the results depend on the processing

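For the 9 members, 156 of 161 values under 10 other settings and 8 left-out libraries kept their direction and their side of the threshold. The exceptions were Gfi1b scaled by library size (0.0706) and under the length correction of abundant genes (-0.0641), Nfe2 under the length correction (0.0733), and Bach1 scaled by library size (0.80) and length-corrected (-0.25). Bach1 was too scarce for the filter of 10 CPM in 4 libraries. Of 661 values of 37 other genes, 651 kept both. The exceptions were Ndufa2 (0.00903 under the length correction of abundant genes), Maff scaled by library size (-0.21), Sirt7 scaled by library size (0.0887) and under the length correction of abundant genes (-0.0435), and Kdm1a, which was 0.123 scaled by library size and passed under the length correction (-0.57), with limma (-0.18) and without Trim27 replicates 1, 2 or 4. The causes were not tested. Counts of calls moved by more than 1.5 times as follows. With library size alone, 5 partners rose, 1 relative fell, 5 erythroid genes fell, and 8 BACH1 and Maf targets rose and 3 fell. With the filter of 10 CPM, which tests fewer genes, 3453 of all genes rose, 3 relatives rose and 2 fell, and 3 BACH1 and Maf targets fell. Under the length correction, 10 partners fell and 3 relatives rose. Under the correction from abundant genes, 3 BACH1 and Maf targets fell. The number of such targets that fell was 4 with DESeq2 size factors, no filter, the DESeq2 Wald test and the replicate block, and 4 to 7 with a library left out.

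Whether the replicate numbers pair the libraries is not stated, and 4 libraries per group cannot settle it. The correlation of same-numbered libraries after removing group means was -0.534, -0.368, 0.119 and 0.0169. The replicate block gave 5133 rises and 4027 falls over all genes. It changed no call among the members, with Gata1 at 0.91 and Klf1 at -0.86. With a library left out, the log2 difference of the Gata1 to Gata2 ratio was 0.21 to 0.296 and that of the Nfe2 to Bach1 ratio -0.353 to 0.193 (0.062 without GFP replicate 2, 0.193 without Trim27 replicate 1 and 0.0397 without Trim27 replicate 4). Chosen after the data were seen, the difference of the 2 genes' length-corrected fold changes was 0.598 for Gata1 and Gata2, 2.16 for Gata1 and Zfpm1, 1.6 for Gata1 and Klf1 (1.66 with the correction from abundant genes) and 0.32 for Nfe2 and Bach1. The GFP level of Mafk rests on 44 counts, and Bach1 on 71 and 173 counts over the 2 groups; with halved counts the SE of Bach1 was 0.321, against 0.328.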
